A study of Caenorhabditis elegans with 6 samples.

Results

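Coelomocytes are scavenger cells of Caenorhabditis elegans that lie in the body cavity and take up fluid and macromolecules from it by endocytosis. The 8 genes described here encode 5 receptors for scavenged cargo or cell corpses and 3 adaptor proteins that link such receptors to the uptake machinery. They were chosen by name among the 21882 genes of the deposited count table: the receptor genes cubn-1, lrp-1, lrp-2, rme-2 and ced-1, and the adaptor genes dab-1, num-1 and ced-6. All 8 were found, all had a count in at least 1 library, and 7 had enough counts to be tested. Only rme-2, at 0 in 5 of 6 libraries, was left out of the test.

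The libraries form 2 groups of 3, all from coelomocytes of L3 larvae that were sorted by GFP before RNA-seq of polyadenylated RNA. Every animal carried the glp-4(bn2) allele, which impairs the germline at the restrictive temperature. Eggs of a population kept at 15 °C were raised at 25 °C for this purpose, and food was given about 24 h after the shift. Whether germ cells remained was not tested. Every animal also carried barIs177, in which the unc-122 promoter drives the GFP used for sorting. The control group is the strain BAT2087 with this reporter alone. The CHE-1 group is the strain BAT2088, which in addition carries barIs115, where a coelomocyte or unc-122 promoter drives FLAG-tagged CHE-1 (followed by the 3' UTR of unc-54) and a myo-2 promoter drives an mCherry marker. CHE-1, a zinc finger transcription factor, gives the ASE gustatory neurons their identity. Each group is 1 strain made from many animals, so strain and transgene cannot be told apart.

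Cubilin and the LDL receptor family are large receptors of the cell surface that bind lipoproteins, carrier proteins and other ligands and carry them into clathrin-coated pits. Mammalian cubilin has no tail of its own in the cytoplasm and is taken up with partner proteins such as megalin or amnionless. The cytoplasmic tails of LDL receptor family members are read by adaptors with a phosphotyrosine-binding (PTB) domain, such as Disabled, Numb and GULP, which bind clathrin or its partners in turn. In C. elegans, ced-1 encodes an engulfment receptor for dying cells, and ced-6 encodes the PTB adaptor that acts with it.

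RNA of che-1 was seen in the libraries labelled for the transgene. Counts per gene do not separate RNA of the transgene from RNA of the animal's own che-1 gene. The gene che-1 had counts of 3, 0 and 1 without the transgene and stood at 486.8, 808.7 and 805.4 CPM (counts relative to library size) in CHE-1 libraries 1, 2 and 3. Library totals ran from 21353072 to 58325279 counts, with the shallowest library of each group at 23062805 (control library 2) and 21353072 (CHE-1 library 1). Of the coelomocyte genes, unc-122 was at 1805, 1228 and 1972 CPM in control libraries and at 1298, 1212 and 1570 CPM in CHE-1 libraries, so the groups overlapped. The other 5 coelomocyte genes were lower in every CHE-1 library than in any control library, and edgeR called 3 of them lower, namely cup-4 (log2 fold change -1.62), lgc-26 (-1.54) and aman-1 (-8.16). On the same scale the uncalled ceh-34 was at -1.94 (edgeR adjusted p = 0.0882) and the uncalled eya-1 at -1.95 (0.331). Leaving out CHE-1 library 2 (edgeR adjusted p = 0.0562), the first CHE-1 library (0.0696) or the first control library (0.0856) ended the call of aman-1. Summed over 6 coelomocyte genes, the level ran from 11871 to 17503 CPM in controls and from 3425 to 4866 CPM in CHE-1 libraries. Markers of other tissues were detected too. The hypodermis list ran from 308.0 to 632.0 CPM in controls and from 354.3 to 369.1 in CHE-1 libraries, the intestine list from 233.6 to 336.4 and from 215.9 to 890.7, and the pharynx list from 48.5 to 515.6 and from 28.5 to 106.3. The body wall muscle list ran from 787.7 to 1293 and from 1874 to 2964, with 1 of its 7 tested genes (mup-2) called higher. Without mup-2 it ran from 651.5 to 1117 and from 819.3 to 1901 CPM, so the groups overlapped. The gonad and germline list ran from 222.3 to 365.2 and from 167.2 to 259.3. Most of its sum was fos-1, with means of 258.1 CPM in controls and 190.0 CPM in CHE-1 libraries. The list of neuronal genes ran from 78.0 to 181.0 and from 3120 to 3645, with 5 of 6 called higher (rab-3, ric-4, egl-3, unc-104 and snt-1). The call of snt-1 was lost with edgeR adjusted p from 0.0633 to 0.135 when any library but control library 2 was left out. In CHE-1 library 1 the neuronal sum (3617 CPM) was above the coelomocyte sum (3425 CPM). Such sums depend on the genes listed and on their lengths, so they do not compare the amounts of neuronal and coelomocyte RNA. The hypodermal gene bli-1 had no count in any library.

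Among the 7 tested genes, cubn-1 and dab-1 fell, lrp-2 rose, and lrp-1, ced-1, num-1 and ced-6 did not pass the test. Genes were called at an adjusted p under 0.05 in edgeR's quasi-likelihood test over 9112 genes. By that rule 1.69% of all tested genes were lower and 3.37% were higher in CHE-1 libraries, against 2 and 1 of the 7 genes here. DESeq2, which called 4.16% of genes lower and 6.90% higher, and limma-voom, which called 3.23% and 5.71%, also gave 2 and 1. The 3 called genes were also the ones whose groups did not overlap, which held for 23.4% of all tested genes. The median log2 fold change was -0.25 over the 7 genes and 0.04 over all tested genes. In bulk samples, fewer coelomocytes in the sort and less RNA of a gene per coelomocyte cannot be told apart.

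**Figure D1:**
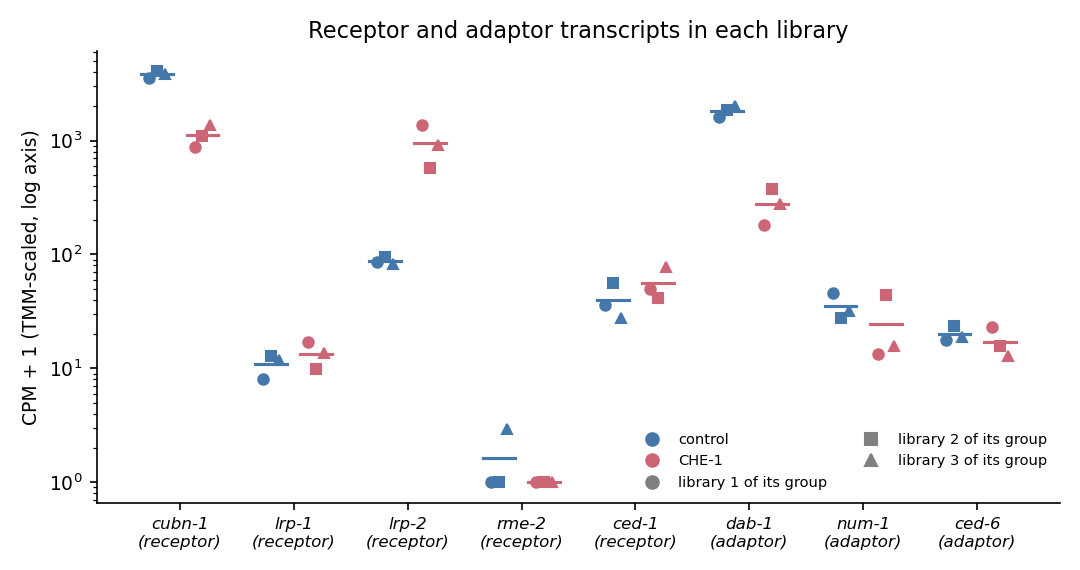
Level of each receptor and adaptor gene in each library, as TMM-scaled CPM plus 1 on a log axis; symbols are libraries and horizontal lines are means of 3 libraries. The groups are apart for cubn-1, lrp-2 and dab-1 and overlap for the other genes.

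The cubilin gene cubn-1 (WBGene00013855, chromosome V, 12611329 to 12628749 on WBcel235, plus strand, 42 exons in 1 transcript) encodes the homologue of the mammalian receptor that takes up intrinsic factor with vitamin B12 and filtered proteins. Its level was 3534, 4051 and 3845 CPM in the control libraries and 883.6, 1085 and 1368 CPM in the CHE-1 libraries. The lowest control library was thus above the highest CHE-1 library, and the means were 3810 ± 260 and 1112 ± 244 CPM (SD, n = 3 each). Expressed as log2, the fold change was -1.78 with an SE of 0.19 (adjusted p = 0.000193, edgeR). Of the 9112 tested genes, 615 had a lower fold change. The mean of cubn-1 was 3.43 times as high in controls as in CHE-1 libraries, and that of the coelomocyte genes lgc-26, cup-4, ceh-34 and eya-1 was 2.90 to 3.88 times as high. The ratio of cubn-1 to each of these 4 genes overlapped between the groups. For the coelomocyte genes unc-122 and aman-1 the mean was 1.23 and 286 times as high in controls. The ratio of cubn-1 to unc-122 was lower in every CHE-1 library, and that to aman-1 was higher in every CHE-1 library.

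The LDL receptor family genes went different ways. The gene lrp-2 (WBGene00003072, chromosome I, 3935272 to 3953991, minus strand) encodes a receptor of the megalin type, and with lrp-1 it acts in C. elegans in secretion of the FGF EGL-17. It stood at 84.8, 94.5 and 82.1 CPM in control libraries and at 1360, 572.8 and 909.2 CPM in CHE-1 libraries. All CHE-1 libraries were far above all controls, and the ratio of the means (87.1 ± 6.50 and 947.2 ± 395 CPM, SD, n = 3 each) was 10.9. Expressed as log2, the fold change was 3.44 with an SE of 0.31 (adjusted p = 5.85e-05, edgeR).

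The spread of lrp-2 was wider with CHE-1, at 41.7% of the mean, than in control libraries, at 7.47%. The highest value was in CHE-1 library 1, the shallowest of all, which had the lowest che-1 level and the lowest cubn-1 and dab-1 levels of its group. With 3 libraries a relation between these genes cannot be tested.

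The gene lrp-1 (WBGene00003071, chromosome I, 7614176 to 7634143, plus strand) encodes a megalin homologue that the C. elegans epidermis needs for moulting. Its level was low in every library, with 7.13, 11.7 and 10.9 CPM in controls and 16.0, 8.91 and 12.5 CPM in CHE-1 libraries. The groups overlapped, and 0.33 ± 1.10 as log2 fold change ± SE did not pass the test (edgeR adjusted p = 0.998). These 2 genes are paralogs, and how the upstream estimate divided reads between them is not stated in the labels. Their summed level, which does not depend on that division, was 97.0 ± 7.96 CPM in controls and 959.7 ± 398 CPM in CHE-1 libraries (SD, n = 3 each).

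The gene rme-2 (WBGene00004374, chromosome IV, 5470026 to 5473174, plus strand) encodes the LDL receptor family member through which oocytes take up yolk. It had 103 counts in control library 3 and none in the other 5 libraries. A count of 0 allows up to 3 counts, or 0.136 CPM in the shallowest CHE-1 library and 0.0476 CPM in the deepest, for counting error only. Since 2 control libraries were also at 0, no fold is given. Its ligands, the yolk proteins, were close to undetected too: the 6 vitellogenin genes had 0 counts in many libraries, and the most abundant of them were vit-5 (1.74 ± 2.93 against 2.97 ± 2.70 CPM), vit-4 (2.88 ± 4.75 against 1.68 ± 2.90 CPM) and vit-1 (0.596 ± 1.03 against 2.66 ± 4.60 CPM, control against CHE-1, SD, n = 3 each).

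The engulfment receptor gene ced-1 (WBGene00000415, chromosome I, 11851554 to 11868105, minus strand) was present in every library. It stood at 34.9, 55.2 and 26.9 CPM in controls and 48.4, 40.6 and 76.6 CPM in CHE-1 libraries. The groups overlapped and 0.50 ± 0.42 as log2 fold change ± SE did not pass the test (edgeR adjusted p = 0.858).

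Of the adaptors, dab-1 (WBGene00000894, chromosome II, 8222386 to 8229153, plus strand, 11 transcripts) encodes the Disabled homologue, which in C. elegans acts with lrp-1 and lrp-2. Its level was 1618, 1856 and 2021 CPM in controls and 178.8, 373.3 and 274.4 CPM in CHE-1 libraries. Every control library was far above every CHE-1 library. Means were 1832 ± 202 and 275.5 ± 97.2 CPM (SD, n = 3 each), a 6.65-fold lower level with CHE-1, and the log2 fold change was -2.73 with an SE of 0.27 (edgeR adjusted p = 9.62e-05). Only 306 of the 9112 tested genes had a lower fold change. In the annotation, 11 of its 2301 exonic bases also belong to ifg-1 on the same strand.

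The Numb homologue num-1 (WBGene00003830, chromosome V, 20829811 to 20837619, plus strand), a PTB adaptor that regulates endocytic recycling, was at 45.3, 26.4 and 30.9 CPM in controls and 12.4, 43.4 and 14.7 CPM in CHE-1 libraries. CHE-1 library 2 lay within the control range while the other 2 lay below it, and -0.54 ± 0.59 as log2 fold change ± SE did not pass the test (edgeR adjusted p = 0.962). Without CHE-1 library 2 it was -1.34, still not called. That library also had the highest sums of the body wall muscle (2964 CPM) and intestine lists (890.7 CPM). Their part in the num-1 value was not tested.

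The GULP homologue ced-6 (WBGene00000420, chromosome III, 5595771 to 5598061, plus strand) was at 16.6, 22.7 and 17.9 CPM in controls and 21.8, 14.6 and 11.8 CPM in CHE-1 libraries. The groups overlapped, and -0.25 ± 0.70 as log2 fold change ± SE did not pass the test (edgeR adjusted p = 0.998). Of its exonic bases, 4.91% overlap wdr-37 on the opposite strand. The libraries are described as strand-specific, but it is not stated whether counting used the strand.

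**Figure D2:**
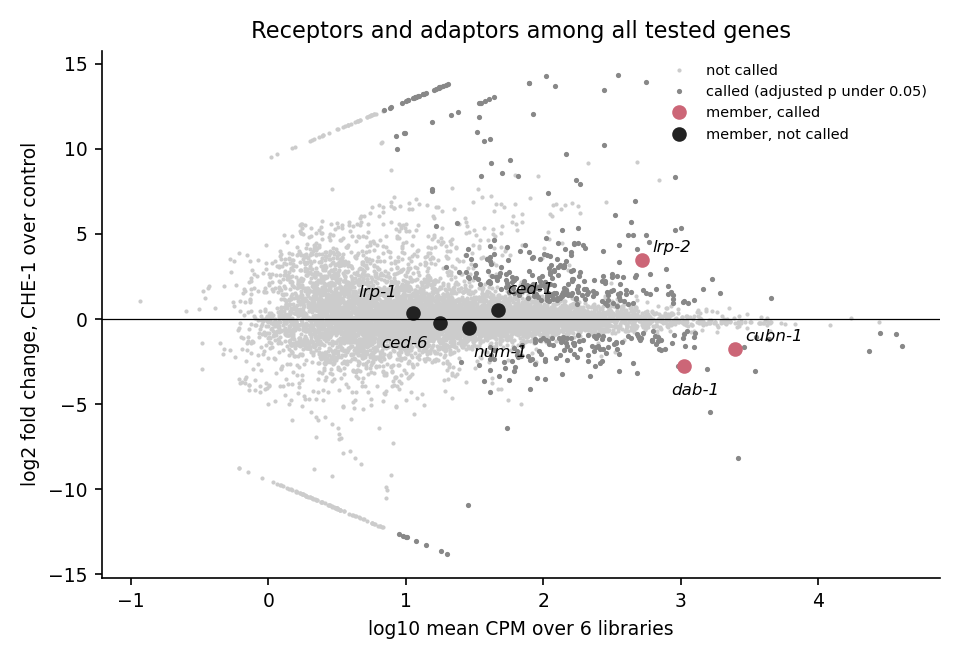
log2 fold change (CHE-1 over control) against log10 of the mean CPM over 6 libraries for the 9112 tested genes, with the 7 tested receptor and adaptor genes marked. The genes cubn-1 and dab-1 lie among abundant genes below 0, lrp-2 lies above 0, and the other 4 lie close to 0 at lower levels.

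Transcripts of the 8 genes were also ranked by CPM per kilobase of exon, since the lengths run from 1.69 kb for ced-6 to 14.85 kb for lrp-2. In control coelomocytes dab-1 (796.0 ± 88.0 CPM per kb) was above cubn-1 (311.9 ± 21.3 CPM per kb), and their values did not overlap (SD, n = 3 each). They ranked at positions 154 and 292 of 12863 genes with a count and a length. Then followed ced-6 (11.3 ± 1.90), num-1 (9.49 ± 2.74), ced-1 (8.0 ± 3.0) and lrp-2 (5.87 ± 0.438 CPM per kb), where each neighbour in the order overlapped the next. The genes lrp-1 (0.674 ± 0.167) and rme-2 (0.223 ± 0.386 CPM per kb) came last.

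In CHE-1 libraries the order at the top was dab-1 (119.7 ± 42.2), cubn-1 (91.1 ± 19.9) and lrp-2 (63.8 ± 26.6 CPM per kb), and each overlapped its neighbour. These genes ranked at positions 748, 962 and 1317. Below them ced-1 (11.3 ± 3.89), ced-6 (9.52 ± 3.07) and num-1 (6.52 ± 4.79 CPM per kb) overlapped, lrp-1 was at 0.847 ± 0.241 CPM per kb, and rme-2 had no count.

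The make-up of the receptor pool was correspondingly different. Of the summed level per kilobase of the 5 receptor genes, cubn-1 held 95.6%, 94.7% and 96.2% in control libraries and 41.4%, 65.2% and 59.0% in CHE-1 libraries. The share of lrp-2 was 1.89%, 1.82% and 1.69% in control and 52.3%, 28.3% and 32.3% in CHE-1 libraries. In CHE-1 library 1 lrp-2 was thus the most abundant of the receptor transcripts, and in the other 2 it came after cubn-1. The sum itself was 326.7 ± 23.7 CPM per kb in controls and 167.0 ± 27.6 CPM per kb in CHE-1 libraries (SD, n = 3 each).

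Among the 3 adaptors dab-1 remained the most abundant in every library. Its share of their summed level per kilobase was 96.9%, 97.5% and 97.9% in control libraries and 82.6%, 88.7% and 91.5% in CHE-1 libraries. The sum was 816.8 ± 86.4 and 135.8 ± 44.7 CPM per kb (SD, n = 3 each).

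Ratios of counts within a library do not depend on how libraries are scaled to each other. The ratio of dab-1 to cubn-1 was 0.458, 0.458 and 0.525 in control libraries and 0.202, 0.344 and 0.20 in CHE-1 libraries. The adaptor was thus lower relative to the receptor in all CHE-1 libraries, where the mean log2 ratio was -2.05, against -1.06 in the controls. The ratio of lrp-2 to cubn-1 was 0.0240, 0.0233 and 0.0213 in control and 1.54, 0.528 and 0.664 in CHE-1 libraries. The ratio of lrp-2 to lrp-1 was 11.9, 8.04 and 7.56 in control and 85.0, 64.3 and 72.8 in CHE-1 libraries.

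For each of these 3 ratios, and for num-1 or ced-6 to dab-1, the groups did not overlap. The two-sided exact permutation test of log2 ratios gave p = 0.1 each, the smallest that 3 against 3 libraries allow, or 0.12 adjusted over the 6 ratios computed. The ratio of ced-6 to ced-1, adaptor to receptor of the engulfment pathway, was 0.477, 0.411 and 0.665 in control and 0.451, 0.361 and 0.154 in CHE-1 libraries, and the groups overlapped (exact permutation p = 0.2). These ratios were chosen after the values of the genes were known. Except for dab-1 to cubn-1, the lack of overlap follows from the ranges of the single genes given above. It therefore adds nothing to the calls of those genes. The share of all gene pairs whose ratios do not overlap was not computed.

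**Figure D3:**
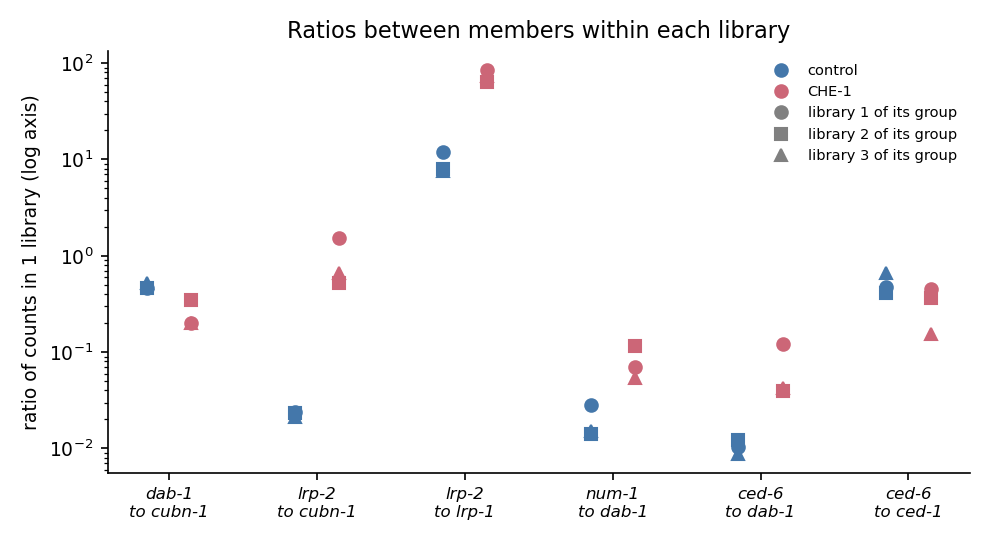
Ratio of the counts of one gene to those of another within each library, on a log axis, with 3 control and 3 CHE-1 libraries per pair. The ratio of dab-1 to cubn-1 is lower in all CHE-1 libraries, the ratios of lrp-2 to cubn-1 and to lrp-1 are higher in all of them, and ced-6 to ced-1 overlaps.

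Set against unc-122, the gene whose promoter marks the sorted cells, the directions were the same for the 3 called genes. The count of cubn-1 per unc-122 count was 1.96, 3.30 and 1.95 in control and 0.681, 0.895 and 0.872 in CHE-1 libraries. That of dab-1 was 0.896, 1.51 and 1.02 against 0.138, 0.308 and 0.175. That of lrp-2 was 0.0470, 0.0769 and 0.0416 against 1.05, 0.472 and 0.579. No group overlapped with the other in these 3 ratios, and the exact permutation p was 0.1 for each. The CPM ranges of the 3 genes and of unc-122 given above already fix this outcome, so it adds nothing to the calls. For lrp-1, ced-1, num-1 and ced-6 the ratios to unc-122 overlapped between the groups.

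The gene unc-122 is the only one of the 6 coelomocyte genes whose groups overlapped, and the ratios to the other 5 were added after the values were seen. The count of cubn-1 per cup-4 count was 0.763, 1.25 and 0.760 in control and 0.734, 0.725 and 0.906 in CHE-1 libraries, so the groups overlapped (log2 difference -0.19, exact permutation p = 0.5). They also overlapped for cubn-1 against lgc-26 (-0.24), ceh-34 (0.39) and eya-1 (0.69). The exact permutation p for these 4 references ran from 0.5 to 0.8.

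The ratio of dab-1 to cup-4 was 0.349, 0.570 and 0.40 in control and 0.149, 0.250 and 0.182 in CHE-1 libraries, and its groups did not overlap (log2 difference -1.19). The same held against lgc-26 (-1.23), while the groups overlapped against ceh-34 (-0.60) and eya-1 (-0.30). For lrp-2 all 5 ratios were higher in every CHE-1 library, with log2 differences from 4.91 to 11.9. This follows from the higher level of lrp-2 and the lower levels of the 5 references. Against aman-1, which had the lowest fold change of the 6, cubn-1 and dab-1 were relatively higher in all CHE-1 libraries (6.75 and 5.76). Where groups did not overlap, the exact permutation p was 0.1.

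The profiles most like those of the called genes were looked up among 1522 tested genes with a mean of at least 100 CPM. Likeness was the root mean square distance between log2(CPM + 1) profiles over the 6 libraries after the mean of each gene was subtracted. The nearest to cubn-1 were mrp-3 (distance 0.140), the aldolase gene aldo-2 (0.185), rgl-1 (0.213), the retromer subunit gene vps-26 (0.216) and Y75B7AL.2 (0.219). The nearest to dab-1 were ZK856.5 (0.149), T19C3.5 (0.250), F35E12.10 (0.256), Y39B6A.5 (0.287) and WBGene00023209 (0.296). The distance between cubn-1 and dab-1 was 0.561. Genes picked for this likeness share the direction of the gene they were picked for by construction. For lrp-2, added after its values were seen, the nearest were bgal-1 (0.164), cdr-4 (0.299), the channel regulator gene unc-80 (0.310), cab-1 (0.312) and the receptor phosphatase gene ptp-3 (0.421).

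The other genes of these pathways were read from 6 lists that together hold 84 genes, of which 74 were tested. Of these, 3 were higher (4.05%) and 8 were lower (10.8%), against 3.37% and 1.69% of all tested genes, and their median log2 fold change was -0.03 against 0.04. A list's share is a description, since the lists were chosen with earlier results of these data known.

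Of 24 tested engulfment partners, 2 were higher and 1 lower, with a median log2 fold change of 0.14. The higher genes encode the integrin pair PAT-2 and PAT-3, a body wall muscle adhesion receptor that in C. elegans also serves muscle cells in engulfing corpses. The alpha subunit gene pat-2 rose from 21.6 ± 13.8 to 382.6 ± 82.8 CPM (4.14 ± 0.47 as log2 fold change ± SE, edgeR adjusted p = 0.000655, n = 3 each). The beta subunit gene pat-3 rose from 109.0 ± 34.9 to 347.8 ± 111 CPM (1.67 ± 0.31, edgeR adjusted p = 0.00871). The sums of the body wall muscle list given above were also higher in all CHE-1 libraries. Without mup-2, the only called gene of its 7 tested, the groups overlapped, at 651.5 to 1117 and 819.3 to 1901 CPM. The part of body wall muscle RNA in the integrin values was not tested. The other integrin alpha gene tested, ina-1, was not called.

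The lower gene was the sorting nexin gene lst-4, at 595.5 ± 76.5 and 269.8 ± 56.3 CPM (-1.14 ± 0.22 as log2 fold change ± SE, edgeR adjusted p = 0.0097). With the shallowest library left out of both groups, lst-4 (edgeR adjusted p = 0.0592) and pat-3 (0.071) were no longer called, at log2 fold changes of -0.97 and 1.44. The 21 other tested genes, among them those of the ced-2, ced-5, ced-10 and ced-12 branch, were not called in edgeR. Of them, DESeq2 called snx-6 lower (adjusted p = 0.0127). The bridging factor gene ttr-52 had no count in any library.

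Of 14 tested genes of the clathrin coat and its adaptors at the plasma membrane, 1 was higher and 2 lower, with a median log2 fold change of -0.08. The endophilin gene unc-57 rose from 136.2 ± 11.9 to 809.8 ± 201 CPM (2.57 ± 0.23 as log2 fold change ± SE, edgeR adjusted p = 6.32e-05, n = 3 each). The synaptojanin gene unc-26, whose product acts with endophilin in removing the coat, and the clathrin heavy chain gene chc-1 were the lower ones. The 4 genes of the AP-2 complex, apa-2, apb-1, aps-2 and dpy-23, were not called, nor were epn-1, ehs-1 or itsn-1.

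Of 23 tested genes of sorting and recycling, 0 were higher and 5 lower (rme-8, rab-5, vps-26, snx-1 and snx-3), with a median log2 fold change of -0.33 and 8 at an unadjusted p under 0.05. With the shallowest library left out of both groups, rab-5 (edgeR adjusted p = 0.0579) and vps-26 (0.0567) were no longer called, at log2 fold changes of -1.04 and -1.24. The retromer subunit gene vps-35 was not called in edgeR but was lower by DESeq2 (adjusted p = 0.000571), by limma-voom (0.0267) and by edgeR with adjusted deviances (0.0314). The gene eea-1 was called lower by edgeR without a count filter (adjusted p = 0.00192). The sorting nexin gene snx-17, whose mammalian homologue recycles LDL receptor family members, was not called.

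Of the other scavenger and LDL receptor family genes, 4 of 10 could be tested, 0 passed in edgeR and 1 had an unadjusted p under 0.05. DESeq2 and limma-voom also called 0. The CD36 family gene scav-3 was at 66.3 ± 9.19 and 31.1 ± 8.96 CPM, and these groups did not overlap (-1.09 ± 0.38 as log2 fold change ± SE, edgeR adjusted p = 0.166). The gene bmy-1 was at 31.4 ± 8.40 and 19.9 ± 16.5 CPM, and scav-1 at 4.90 ± 4.08 and 19.1 ± 21.5 CPM.

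Of 5 other genes for PTB adaptors 0 passed in edgeR and 1 had an unadjusted p under 0.05. The kinase scaffold gene jip-1 was at 18.2 ± 11.5 and 53.4 ± 8.59 CPM, and these groups did not overlap (1.56 ± 0.55 as log2 fold change ± SE, edgeR adjusted p = 0.178). It was called higher by limma-voom and by edgeR with adjusted deviances, and DESeq2 called 0 of the 5. The most abundant, lin-10, was at 185.4 ± 7.92 and 213.5 ± 36.2 CPM, and shc-1 at 15.7 ± 8.04 and 18.9 ± 6.47 CPM. Of the 4 tested genes for ligands and cargo, edgeR, DESeq2 and limma-voom called 0, with 0 at an unadjusted p under 0.05 in edgeR.

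**Figure D4:**
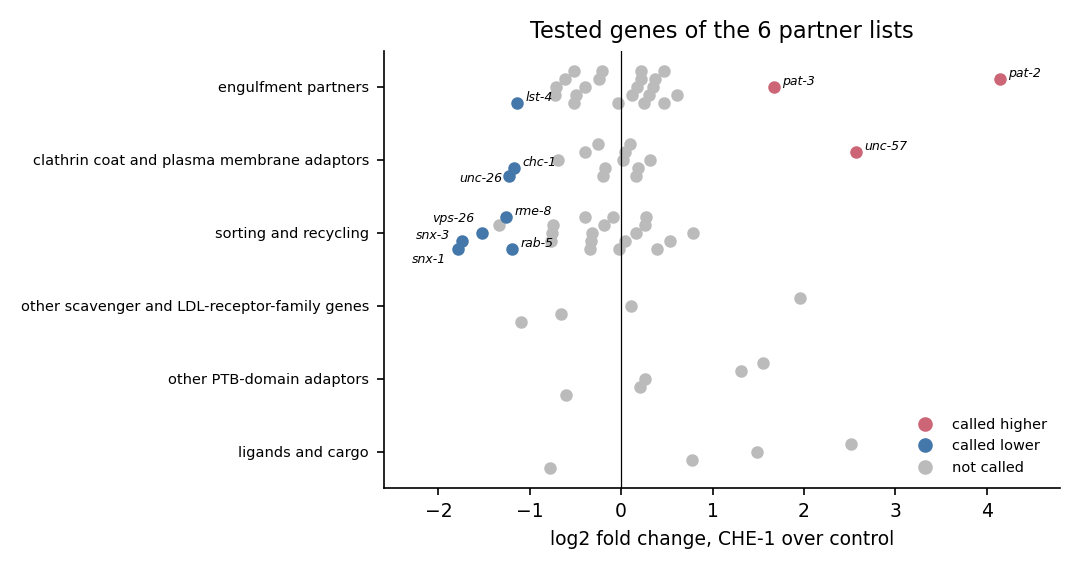
log2 fold change (CHE-1 over control) of each tested gene of the 6 partner lists, 1 point per gene, with called genes named. Of the 74 genes, 3 are called higher and 8 lower, all in the upper 3 lists.

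The directions and calls of the 7 tested genes were the same in all 13 alternative fits of the counts. Over them the log2 fold change ran from -1.95 to -1.62 for cubn-1, from -3.02 to -2.50 for dab-1 and from 3.09 to 3.70 for lrp-2. The largest adjusted p in any of these fits was 0.00353 for cubn-1, 0.00246 for dab-1 and 0.00246 for lrp-2.

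**Figure D5:**
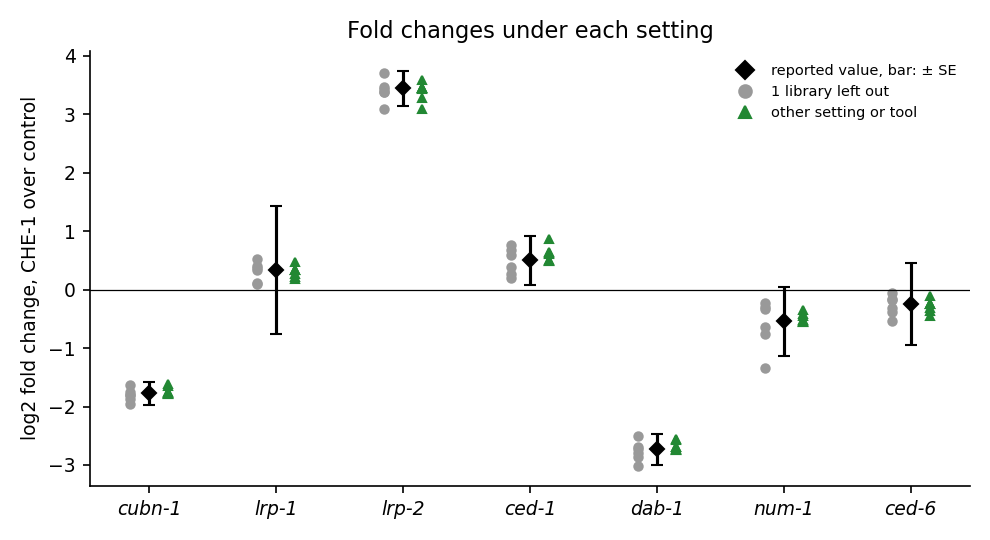
log2 fold change (CHE-1 over control) of the 7 tested genes as reported with its SE, with 1 library left out, and with another normalization, filter, tool or without the shallowest libraries. The values of cubn-1, dab-1 and lrp-2 stay apart from 0 in all of them.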

How the data were processed

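Polyadenylated RNA of sorted coelomocytes was sequenced in 6 libraries, 3 per group. The deposited table holds estimated counts per gene, rounded to whole numbers by the authors or their tools. The submitters' processing notes name Salmon 0.13.1, the build WBcel235 and DESeq2 but give none of them a role; the step from transcripts to genes is not stated there. The deposited normalized table was not used.

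Genes were named from a table of identifiers and symbols (19626 of 21882 matched). Coordinates and exon lengths (union of exons) come from the Ensembl annotation of WBcel235. Groups were compared on the counts with edgeR 4.0.16 in R 4.3.3 (robust glmQLFit, two-sided glmQLFTest), after TMM scaling and a filter by group (minimum count 10, minimum total 15), and p-values were adjusted by Benjamini-Hochberg over all tested genes. Levels are TMM-scaled CPM, and the SE was taken from the fold change and the F statistic of its test, so it is approximate. Alternatives were RLE factors, library totals alone, no count filter, DESeq2 1.42.0, limma-voom (limma 3.58.1), edgeR with adjusted deviances, each library left out, the shallowest library of each group left out, and ratios to unc-122. A block by consecutive library names and ratios to 5 other coelomocyte genes were added after seeing the data. The edgeR, DESeq2 and limma-voom fits were tried on simulated counts with the same dispersion for every gene. In these libraries the spread differed between genes, so the simulation does not give the error rate of the fits here. Within a group no 2 libraries agreed within sampling noise (the lowest chi-square was 207 times its degrees of freedom). Separate cultures or sorts are not stated in the labels: p-values cover the spread between these libraries, and that spread may be technical. The floor for a count of 0 was 3 counts.

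The 8 genes, the partner and marker lists and the tests were chosen with earlier results of these data known. Named were all 8 genes, che-1 and unc-122, every called gene of a partner or marker list, the most abundant uncalled genes of a partner list where fewer than 3 were called (up to 3 genes in all), and the 5 genes with the most similar profiles to cubn-1 and to dab-1. Other genes named without values, and ttr-52, bli-1, fos-1, ina-1, ceh-34, eya-1, vps-35, snx-6, eea-1 and rab-10, were chosen after their values were seen. No sequences were used here, so protein and promoter features planned for these genes were not examined.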

Additional observations from a re-analysis of the deposited data

How the results depend on the processing

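All 7 tested receptor and adaptor genes kept their direction and their side of the threshold in the 13 other planned fits of the counts. Leaving out 1 library at a time gave 1 of these genes higher and 2 lower each time, and 3 partner-list genes higher and 8 lower each time. As ratios to unc-122 the log2 differences were -1.52 for cubn-1, -2.52 for dab-1 and 3.63 for lrp-2, with exact permutation p = 0.1, since 3 against 3 libraries allow no smaller value. As ratios to the other coelomocyte genes, chosen after seeing the data, those for cubn-1 were -0.19 (cup-4), -0.24 (lgc-26), 0.39 (ceh-34), 0.69 (eya-1) and 6.75 (aman-1), those for dab-1 were -1.19, -1.23, -0.60, -0.30 and 5.76, and those for lrp-2 were 4.96, 4.91, 5.55, 5.85 and 11.9, in the same order. These references were themselves lower in CHE-1 libraries. Without the shallowest library of each group 2 partner-list genes were higher in place of 3 and 5 lower in place of 8. Lower were 10 with DESeq2 and 9 with limma-voom, adjusted deviances or no count filter, and higher were 4 with limma-voom or adjusted deviances. The number of all genes called higher and lower was 307 and 154 as reported, 474 and 255 without a count filter, 682 and 411 with DESeq2, 520 and 294 with limma-voom and 695 and 354 with adjusted deviances, and the cause was not tested. Leaving out 1 library gave 234 to 347 higher and 113 to 179 lower. Levels per kilobase of the longest transcript moved by less than 1 SD from those per kilobase of all exons. The labels give the groups no shared replicate numbers, but the library names run in consecutive numbers across the groups. The deviations from the group mean of libraries with consecutive names had Pearson r over 9112 genes of 0.0878, -0.000829 and 0.0553. For other pairs across the groups r ran from -0.0931 to 0.0403. Not every library correlated best with its neighbour in name, and a pairing cannot be told from these values. With these names as a replicate block, added after seeing the data, the log2 fold changes were -1.80 for cubn-1, -2.79 for dab-1 and 3.36 for lrp-2, no call of the 7 genes changed, and 364 genes were higher and 205 lower. The protein and promoter features planned were not run. The level of rme-2 rests on control library 3 (58325279 counts in all, 11297 genes with a count). The gene had no count in control library 1 (57851993 counts, 9608 genes) or CHE-1 library 2 (57860556 counts, 9559 genes). These were close to control library 3 in total counts but had fewer genes with a count. Whether this bears on the zeros of rme-2 was not tested.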
